A study of Mus musculus with 25 samples.

Results

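The melanocortin system was examined through 10 genes in 25 single cells of the mouse arcuate nucleus and median eminence, the region at the base of the hypothalamus that borders the pituitary stalk. The genes were chosen by name and each was on 1 row of a table of 30903 genes. They encode the peptide precursors Pomc, Cartpt, Agrp and Npy, the transcription factors Prdm12 and Nhlh2, the melanocortin receptors Mc3r and Mc4r and the neuropeptide Y receptors Npy1r and Npy2r. The cells form 1 group: they were GFP-positive (GFP+) cells picked by hand after injection of the virus AAV-loxSTOPlox-GFP, whose GFP is expressed only after Cre recombination, into RIP-Cre mice, in which a rat insulin promoter drives Cre. The label thus marks cells that took up the virus and had Cre at or after the injection. Tissue of 2 adult male (C57BL/6 x DBA)F2 mice with an average age of 63 days was pooled, so the mouse of origin of a cell is not known. With 1 pool and no second group there is no test between groups, cells are not replicates, and no p-value is given.

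In the arcuate nucleus, one class of neurons cleaves the Pomc precursor into melanocortins, which activate the receptors encoded by Mc3r and Mc4r and lower food intake. Another class makes agouti-related peptide, the product of Agrp and an antagonist of these receptors, together with neuropeptide Y and GABA, and raises food intake. Neuropeptide Y acts through a family of inhibitory receptors that includes Npy1r and Npy2r, and Npy2r is known as a presynaptic autoreceptor. Prdm12 and Nhlh2 are known in mice as regulators of Pomc, and Cartpt, the precursor of cocaine- and amphetamine-regulated transcript, is often made in the same arcuate cells as Pomc.

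The promoters of Pomc and Cartpt are shown because these genes were the pair of precursors found together most often. Both sequences are RefSeq windows of 300 bases, from 250 before to 50 after the start of the gene, on build GRCm38.p6, read 5′ to 3′ on the strand of the gene. The Pomc window is chr12:3954695-3954994 on the plus strand and the Cartpt window chr13:99900634-99900933 on the minus strand. Capitals mark matches, on either strand, to the E-box CANNTG bound by factors such as Nhlh2, to the homeodomain core TAAT, to the core TGACG of cAMP response elements and to TATAA. Neighbouring matches to the same motif on opposite strands overlap in both windows and run together.
Pomc: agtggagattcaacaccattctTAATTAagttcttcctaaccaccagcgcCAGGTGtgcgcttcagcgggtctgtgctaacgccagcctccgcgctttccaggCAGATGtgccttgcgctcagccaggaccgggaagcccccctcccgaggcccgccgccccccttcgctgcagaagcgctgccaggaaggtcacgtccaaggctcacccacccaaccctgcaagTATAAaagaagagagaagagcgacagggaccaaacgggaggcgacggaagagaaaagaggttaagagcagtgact
Cartpt: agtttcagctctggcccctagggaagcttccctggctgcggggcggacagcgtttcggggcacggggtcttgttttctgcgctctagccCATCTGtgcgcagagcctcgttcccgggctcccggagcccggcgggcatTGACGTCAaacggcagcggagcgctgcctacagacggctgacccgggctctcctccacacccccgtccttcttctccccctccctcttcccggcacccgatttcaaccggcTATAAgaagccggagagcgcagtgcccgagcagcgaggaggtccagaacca
The Pomc window held 2 E-boxes, 2 overlapping TAAT matches, no TGACG and 1 TATAA. The Cartpt window held 1 E-box, no TAAT, 2 overlapping TGACG matches and 1 TATAA. Over 32851 promoter windows of the same length, 72.3% held an E-box, 58.0% TAAT, 20.8% TGACG and 24.9% TATAA, so the E-box and TAAT matches are common ones. Windows of 8 of the 10 genes were scanned for these motifs, and no window of Agrp or Mc4r was used.

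Levels are given in RPKM, reads scaled to the length of the gene and the reads of the cell, so they may be compared between genes. A gene was called detected at 10 RPKM or more. Estimated depth was 890000 to 3000000 reads per cell with a median of 1810000, and 3843 to 6183 genes were detected per cell. At the median depth, 10 RPKM stands for 23.8 reads of Pomc, 10.2 reads of the short Npy and 62.5 reads of the longer Npy1r. All 8 neuronal markers were detected in at least 18 of 25 cells, and the astrocyte markers Gfap and Agt, the oligodendrocyte markers Mog, Mobp and Mag and the pituitary hormone genes Prl, Cga and Tshb were at 0 in every cell. No 2 of the 300 pairs of cells had identical values.

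Most cells had few of the 10 genes and 1 cell had nearly all of them. A median of 2 of the 10 genes was detected per cell, where a median of 15.8% of all genes was. There were none in cells 24 and 25, 1 in 6 cells, 2 in 12 cells, 3 in cells 7, 10 and 43, 5 in cell 8 and 9 in cell 29. Cell 29 lacked only Mc4r at this level. It also had the most genes detected, 6183, or 20% of all genes, although its estimated depth of 1350000 reads ranked 20th of the 25. Cell 29 further had Malat1, a nuclear noncoding RNA, at 10.2 RPKM and 5 of the 8 neuronal markers, with the synaptic vesicle gene Syt1 at 0, Map2 at 3.05 RPKM, Rbfox3 at 3.89 RPKM and the intermediate filament gene Vim at 102 RPKM. Whether cell 29 was 1 cell was not tested. Across the cells the number of members detected did not follow depth (Spearman rho = -0.02, n = 25 cells, a description).

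**Figure D1:**
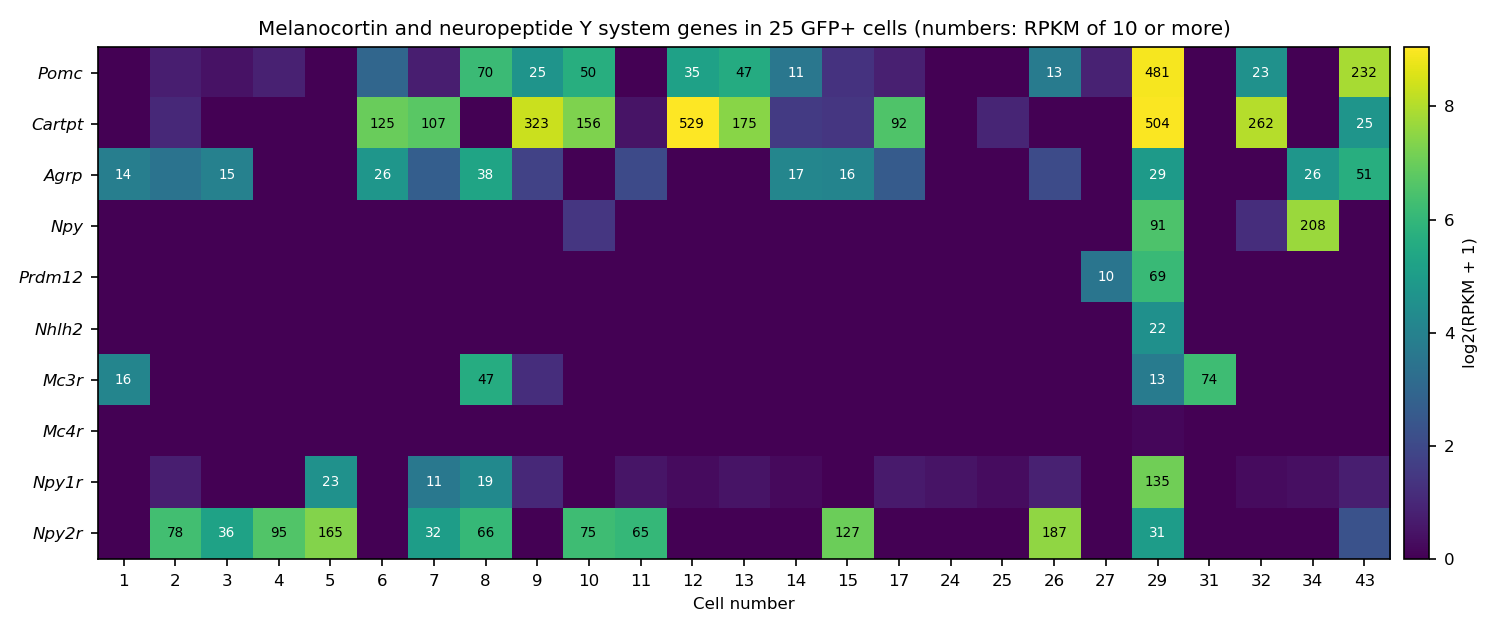
Level of the 10 genes (rows) in each of the 25 GFP+ cells (columns, by cell number), coloured by log2(RPKM + 1), with the RPKM written where it is 10 or more. Cell 29 reaches the level for 9 of the 10 genes, cell 8 for 5 and every other cell for at most 3.

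Pomc was at or above the level in 10 cells (40%, exact Clopper-Pearson 95% interval 21.1 to 61.3%), a breadth that 17.4% of all genes reached or passed. Such intervals hold only the counting error of choosing 25 cells. Its values were 481 RPKM in cell 29, 232 RPKM in cell 43, 70.2 RPKM in cell 8, 50.4 RPKM in cell 10 and 46.6 RPKM in cell 13. They were 34.8 RPKM in cell 12, 24.7 RPKM in cell 9, 22.9 RPKM in cell 32, 12.6 RPKM in cell 26 and 11.0 RPKM in cell 14. Cells 29 and 43 thus stand apart from a continuous low range. In cell 29, Pomc ranked 3rd of all genes by RPKM and was backed by an estimated 857 reads, and in cell 43 it ranked 499th with an estimated 408 reads.

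Below the level, Pomc was 7.01 RPKM in cell 6 and 0.36 to 1.48 RPKM in 7 further cells, which corresponds to estimates of 1.01 to 3.98 reads. It was listed at 0 in 7 cells, where 3 reads, the limit that a count of 0 allows, would be 1.26 RPKM at the median depth. Outside its 10 cells Pomc was thus at 0 or at a few reads, except in cell 6 with an estimated 17.1 reads.

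Cartpt was also detected in 10 cells (40%, interval 21.1 to 61.3%, against 17.4% of all genes in at least as many), but at higher levels, with a median of 165 RPKM in these cells against 40.7 RPKM for Pomc in its own. The highest values were 529 RPKM in cell 12, 504 RPKM in cell 29, 323 RPKM in cell 9 and 262 RPKM in cell 32. The values were 175 RPKM in cell 13, 156 RPKM in cell 10, 125 RPKM in cell 6, 107 RPKM in cell 7, 92.1 RPKM in cell 17 and 25.2 RPKM in cell 43. No other cell exceeded 1.91 RPKM, so Cartpt was close to all or none. It was the highest of all genes in cell 29 and ranked 14th in cell 12.

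The cells in which Pomc coincided with Cartpt numbered 7 (cells 9, 10, 12, 13, 29, 32 and 43), which is 70% of the cells of each gene, against 4 cells from the product of their shares. Of 2172 other genes detected in 8 to 12 cells, 3.13% shared at least 7 cells with Pomc. Over all 25 cells Spearman's rho between them was 0.63 and Pearson's r on log2(RPKM + 1) was 0.64, and r was 0.61 without cells 29 and 43. These values describe cells from 1 pool and 1 library preparation. The balance of the 2 genes differed widely among the 7 cells. Cartpt was 15.2 times Pomc in cell 12, 13.1 times in cell 9, 11.4 times in cell 32, 3.75 times in cell 13 and 3.09 times in cell 10. Both were nearly equal in cell 29, with a ratio of 1.05, and cell 43 was the only one with less Cartpt than Pomc, at a ratio of 0.109.

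**Figure D2:**
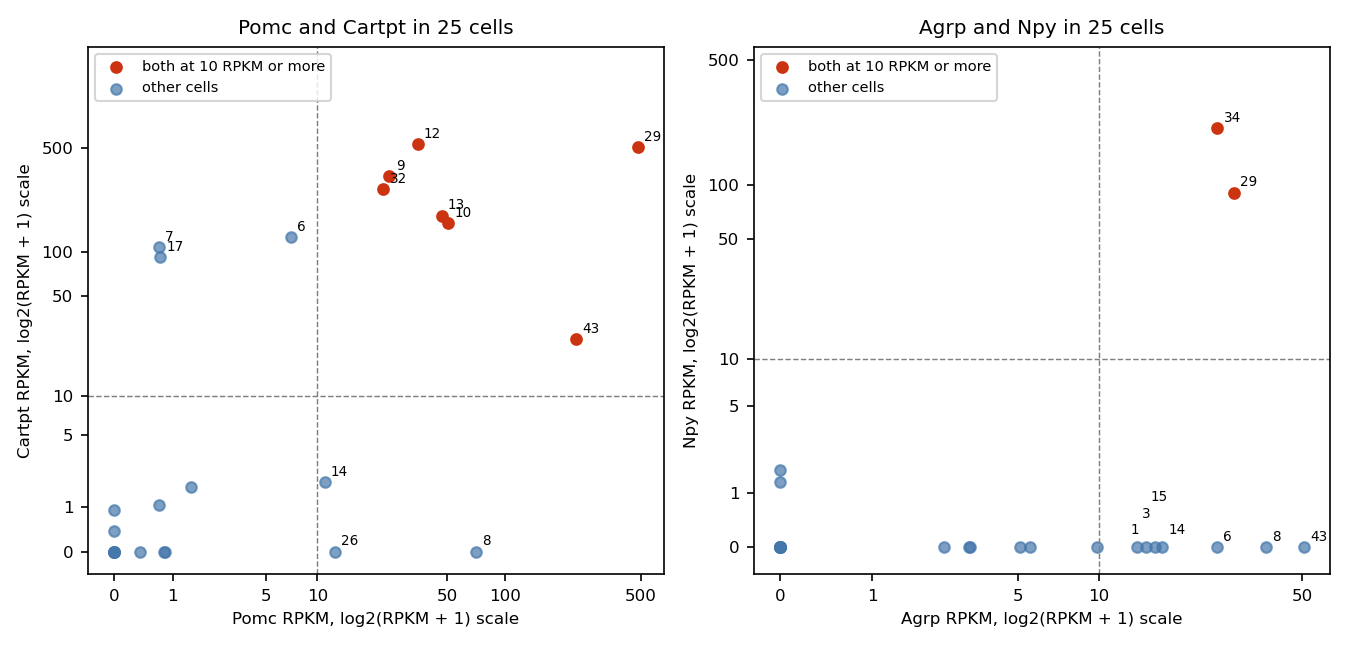
Cartpt against Pomc (left) and Npy against Agrp (right) in the 25 cells, in RPKM on a log2(RPKM + 1) scale, with dashed lines at 10 RPKM and cell numbers beside cells that reach it for either gene. The 7 cells with both Pomc and Cartpt lie in the upper right of the left panel, whereas only cells 29 and 34 do so for Agrp and Npy and the other Agrp cells lie on the line of 0 Npy.

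Agrp was detected in 9 cells (36%, interval 18.0 to 57.5%, against 18.9% of all genes in at least as many), all at low levels. It was 50.6 RPKM in cell 43, 37.6 RPKM in cell 8, 29.5 RPKM in cell 29, 25.9 RPKM in cell 34 and 25.8 RPKM in cell 6. It was 16.8 RPKM in cell 14, 15.8 RPKM in cell 15, 14.7 RPKM in cell 3 and 13.6 RPKM in cell 1. Cell 2 missed the level at 9.90 RPKM, 5 further cells had 2.42 to 5.55 RPKM and 10 were at 0. Unlike Cartpt, Agrp thus showed no gap between cells with and without it, and its highest rank in any cell was 2244th of all genes.

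Npy, which Agrp neurons usually make in large amounts, was detected in 2 cells (8%, interval 0.984 to 26.0%, against 35.8% of genes in at least as many). It was 208 RPKM in cell 34 and 90.9 RPKM in cell 29, 1.67 RPKM in cell 10, 1.29 RPKM in cell 32 and 0 in the other 21 cells. Both Npy cells had Agrp, whereas the product of shares is 0.72 cells. Of 1293 other genes detected in exactly 2 cells, 10.1% had both of them among the Agrp cells. Without cell 29, the pair rested on cell 34 alone, and Npy was in 5.26% of cells without the 6 cells with Malat1 under 20 RPKM (1, 3, 5, 6, 29 and 31). In the other 7 Agrp cells Npy was listed at 0, where 3 reads would be 2.93 RPKM at the median depth.

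Haemoglobin RNA was found in most Agrp cells and in some other cells. The alpha globin gene Hba-a2, which red blood cells express and which has a near-identical copy that counting can split, was the gene second most like Agrp over the cells (rho = 0.62). It was detected in 7 of the 9 Agrp cells, against 3.24 from the product of shares. That overlap is partly built in, since Hba-a2 was picked for its likeness to Agrp. Of 11 red blood cell genes listed after the likeness of Hba-a2 was seen, 7 were in the table. Their summed level had a rho of 0.55 with Agrp but -0.04 with Pomc, 0.11 with Cartpt and -0.05 with Npy2r. The sum includes Hba-a2, which was picked for its likeness to Agrp, so a higher rho with Agrp is partly built in. Taken singly, the rho with Agrp was 0.44 for Hbb-bs, 0.35 for Hbb-b2, 0.20 for Slc4a1 and 0.08 for Alas2. The sum ranged from 0 to 140 RPKM with a median of 77.6 RPKM in the 9 Agrp cells, and from 0 to 118 RPKM with a median of 10.4 RPKM in the other 16 cells. The sum was at 10 RPKM or more in 15 cells, 7 of them Agrp cells, against 5.4 from the product of shares. Cells 3 and 29 had Agrp with sums of 0 and 5.96 RPKM. The embryonic globin gene Hbb-bh1 was at 0 in all cells. The part of RNA from other cells in the Agrp values was not tested.

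The Agrp annotation in GENCODE meets other genes, but low Agrp values did not fall on whole reads with its lengths, so the gene model behind the deposited values may differ. The same held for low values of Cartpt and for the only value of Mc4r above 0. In GENCODE M21 (GRCm38) Agrp spans chr8:105566698-105637393 on the minus strand, since a long transcript form starts far upstream, and 114 bases of its exons overlap exons of Ctcf on the opposite strand. Ctcf, a chromatin insulator protein gene, was detected in 13 cells, 5 of them Agrp cells against 4.68 from the product of shares. The library kit does not mark strand, and the part of such reads was not tested.

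Pomc and Agrp, the markers of opposed classes of neuron, were detected together in 4 cells (8, 14, 29 and 43) against 3.6 from the product of shares, and 53.6% of genes of like breadth shared as many cells with Pomc. Spearman's rho was 0.24 over the 25 cells and 0.02 without cells 29 and 43. In all, 17 cells had at least 1 of the 4 precursors and cell 29 alone had all of them. The cells with none were 2, 4, 5, 11, 24, 25, 27 and 31.

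The regulators were almost confined to cell 29. Prdm12 was 68.5 RPKM in cell 29, 10.4 RPKM in cell 27 and 0 in the other 23 cells, and 35.8% of genes were detected in at least 2 cells. Prdm12 thus shared 1 cell with Pomc, and 66.8% of genes of the same breadth shared at least 1. Cell 27 had Pomc at 0.82 RPKM, an estimated 1.99 reads. Nhlh2 was 22.2 RPKM in cell 29 and 0 in the other 24 cells, where 3 reads would be 0.306 RPKM at the median depth. Its cell was a Pomc cell, as for 40.6% of other genes detected in 1 cell only. Of 2132 genes detected in 1 cell only, 5.39% were detected in cell 29, and 42.7% of all genes were detected in at least 1 cell. The 9 other Pomc cells, cell 43 with 232 RPKM among them, thus had both regulators at 0. On the genome, 200 exon bases of Prdm12 (chr2:31640037-31655795, plus strand) overlap exons of the antisense gene Gm13425, whose reads cannot be told apart without strand.

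Of the melanocortin receptors, Mc3r was detected in 4 cells (16%, interval 4.54 to 36.1%, against 28.8% of genes in at least as many). It was 74.3 RPKM in cell 31, 47.4 RPKM in cell 8, 16.5 RPKM in cell 1 and 12.7 RPKM in cell 29, then 1.29 RPKM in cell 9 and 0 in 20 cells. Cells 1, 29 and 31 were among the 6 cells of low Malat1, and without those 6 the share was 5.26%. Of the 4 Mc3r cells, 3 had Agrp (cells 1, 8 and 29), and 8.68% of 760 other genes detected in exactly 4 cells shared at least 3 with Agrp. Mc4r reached the level in none of 25 cells, which allows a share of up to 12% by the limit of 3 counts and up to 13.7% by the exact interval, and 57.3% of all genes likewise reached it in none. It was listed above 0 only in cell 29, at 0.13 RPKM, and 3 reads would be 0.592 RPKM at the median depth. With the GENCODE length, the value in cell 29 stands for an estimated 0.49 reads. The gene length behind the deposited values may thus differ, and the 0.592 RPKM is uncertain.

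The neuropeptide Y receptor Npy2r was the most widespread of the 10 genes, in 11 cells (44%, interval 24.4 to 65.1%, against 16% of genes in at least as many). It was 187 RPKM in cell 26, 165 RPKM in cell 5, 127 RPKM in cell 15, 94.8 RPKM in cell 4, 78.2 RPKM in cell 2 and 74.6 RPKM in cell 10. It was 65.9 RPKM in cell 8, 64.9 RPKM in cell 11, 35.8 RPKM in cell 3, 31.7 RPKM in cell 7 and 31.4 RPKM in cell 29. Cell 43 had 3.85 RPKM and the other 13 cells were at 0, so the cells with and without the receptor were separated by a gap. Its level had a rho of 0.58 with estimated depth, against -0.19 for Pomc, -0.14 for Cartpt and -0.02 for Agrp. The part of depth in this was not tested. In the shallowest cell, 3 reads of Npy2r would be 0.995 RPKM.

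Npy1r was detected in 4 cells (16%, interval 4.54 to 36.1%, against 28.8% of genes in at least as many), at 135 RPKM in cell 29, 23.2 RPKM in cell 5, 18.6 RPKM in cell 8 and 11.5 RPKM in cell 7. A further 13 cells had 0.17 to 1.04 RPKM and 8 were at 0. Without the cells of low Malat1 the share was 10.5%. All 4 Npy1r cells had Npy2r, where the product of shares is 1.76 cells, and 3.55% of 760 other genes detected in exactly 4 cells had all of them among the Npy2r cells. Npy5r, the next receptor of the family, lies 9063 bases from Npy1r on chromosome 8 and was 58.7 RPKM in cell 5, 47.5 RPKM in cell 29, 44.9 RPKM in cell 17 and 0 elsewhere. The receptor genes Npy4r and Npy6r were at 0 in all cells.

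Receptors and precursors did not follow each other closely. Of the 13 cells with at least 1 of the 4 receptors, 8 had at least 1 precursor, and of the 12 cells without a receptor, 9 did. Agrp and Npy2r shared 4 cells against 3.96 from the product of shares, and 54.5% of genes of like breadth shared as many with Agrp. Pomc and Npy2r likewise shared 4 cells against 4.4.

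**Figure D3:**
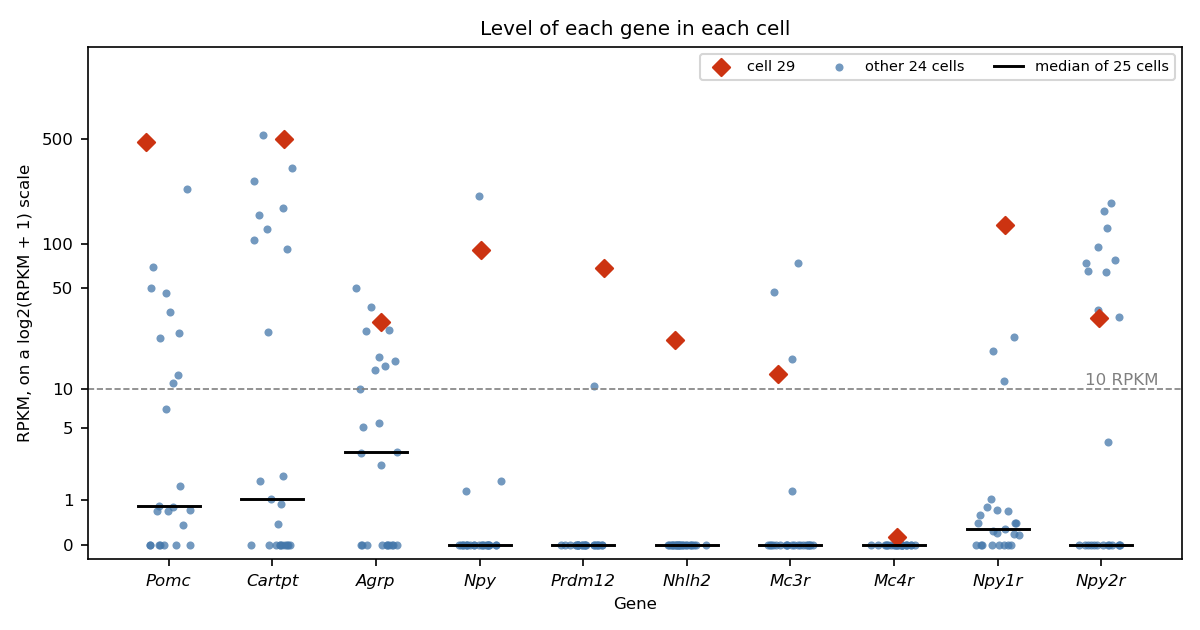
Level of each gene in each of the 25 cells, in RPKM on a log2(RPKM + 1) scale, with cell 29 as a red diamond, the other 24 cells as blue points spread sideways at random, the median of the 25 cells as a bar and a dashed line at 10 RPKM. Cartpt and Npy2r fall into high cells and cells near 0 with a gap between, Pomc and Agrp grade down through the level, and cell 29 holds the highest value of Pomc, Prdm12, Nhlh2 and Npy1r.

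The machinery that cuts and finishes precursors was uneven. The carboxypeptidase gene Cpe, the convertase chaperone Scg5 and the convertase inhibitor Pcsk1n were detected in all 25 cells, at medians of 324, 340 and 268 RPKM, and the amidating enzyme Pam and the cathepsin gene Ctsl in 24 cells each. In contrast, Pcsk1, the convertase that makes the first cuts in the Pomc precursor, was detected in 6 cells, and Pcsk2, which makes the later cuts that lead to alpha-MSH, in 12. The share of all genes was not taken at these breadths. It was 28.8% for at least 4 cells, 18.9% for at least 9 and 16% for at least 11. For at least 6 cells it thus lies between 18.9% and 28.8%, and for at least 12 or more it is at most 16%. Pcsk1 was detected in 2 of the 10 Pomc cells (29 and 32) against 2.4 from the product of shares, and Pcsk2 in 4 (9, 12, 14 and 29) against 4.8. Cell 29 alone had Pomc with both convertases, at 127 RPKM for Pcsk1 and 24.8 RPKM for Pcsk2, and 5 Pomc cells had neither. Pairs of other genes were not counted beside this. The peptidase gene Dpp4 reached the level in no cell.

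Of 12 further receptor and accessory genes, 7 were detected in at least 1 cell, against 42.7% of all genes. The ubiquitin ligase gene Mgrn1 and the attractin gene Atrn, both known from agouti signalling in mice, were detected in 21 and 14 cells, the syndecan gene Sdc3 in 18 and the receptor accessory gene Mrap2 in 14. Mrap2 was highest in cell 43, at 117 RPKM, and was detected in all 4 Mc3r cells, as 12.7% of genes of the same breadth were. It was detected in 8 of the 9 Agrp cells, and 0.904% of genes of the same breadth shared as many. The Mrap2 pairs were chosen with their values known. Mc1r was detected in 2 cells, Mc5r in none, with a highest value of 8.74 RPKM, and Mc2r and Mrap were at 0 in all cells.

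Among 18 transcription factors tied to Pomc or Agrp neurons, a median of 7 was detected per cell, where a median of 15.8% of all genes was. Six6 was in 23 cells, Six3 in 22, Isl1 and Nr4a1 in 18 each and Dlx2 and Stat3 in 13 each, while Rax and Neurod1 were at 0 in every cell. Isl1, a LIM homeodomain factor known to act on Pomc in mice, was detected in all 10 Cartpt cells and 8 of the 10 Pomc cells, each against 7.2 from the product of shares. Of 255 other genes detected in exactly 18 cells, 0.392% covered all Cartpt cells, whereas 37.6% shared at least 8 cells with Pomc. Otp, a homeodomain factor known from Agrp neurons in mice, was 60.5 RPKM in cell 34, 45.8 RPKM in cell 6, 27.1 RPKM in cell 43 and 24.5 RPKM in cell 1. All 4 were Agrp cells, and 0.658% of 760 genes of the same breadth likewise lay within the Agrp cells. The summed red blood cell genes were at 78.6, 89.9, 140 and 82.3 RPKM in these same cells. Bsx, also on this list and likewise in 4 cells, shared only 2 of them with Agrp, against 1.44 from the product of shares. Corin, another listed marker of Agrp neurons, was detected in 2 cells, none of them Agrp cells. The pairs in this paragraph were picked out after their values were seen.

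Of 12 receptor and channel genes known on these neurons, 9 reached the level in some cell, against 42.7% of all genes, and the median gene did so in 1.5 cells, against 0 cells over all genes. Esr1, an oestrogen receptor gene, was found in 11 cells, Glp1r in 10, the insulin receptor Insr in 9 and the serotonin receptor Htr2c in 6, and Hcrtr1, an orexin receptor, in 3. The leptin receptor Lepr did not exceed 2.73 RPKM, its value in cell 29, and Gabrd was at 0 in all cells. The ghrelin receptor Ghsr, a mark of Agrp neurons, was 10.5 RPKM in cell 14 and 0 in the other 24. By contrast, genes that carry signals from these receptors were broad. Gnas, the catalytic subunits Prkaca and Prkacb of protein kinase A and the inhibitory G proteins Gnai2 and Gnao1 were in all 25 cells, Gnai1 in 22 and the adenylyl cyclase Adcy3 in 16. Of all genes, 16% were detected in at least 11 cells. The share at 16, 22 or 25 cells was not taken and is at most that. Sim1 was at 0 throughout, and Creb1 and the channel gene Kcnj13, highest at 5.66 and 6.04 RPKM, were below the level in all cells.

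Other markers of these cells crossed the system as follows. Tbx19, a factor known for Pomc expression in the pituitary, was detected in 7 cells, 5 of them with Pomc (10, 13, 14, 32 and 43) against 2.8 from the product of shares, and 6.97% of 545 genes of the same breadth shared as many. Of the other pituitary markers listed, the receptor gene Crhr1 was detected in 3 cells, highest at 63.7 RPKM in cell 34, and the growth hormone gene Gh in cell 4 alone, at 15.2 RPKM. Pax7 and Pitx1 were at 0 in every cell, as were the 3 hormone genes named above, and the part of pituitary RNA was not tested. Lhx1 was detected in 7 cells, of which 6 had Npy2r against 3.08 from the product of shares, and 2.02% of 545 genes of the same breadth shared as many. Th shared 5 of its 8 cells with Agrp against 2.88, as did 5.78% of 519 genes of the same breadth. None of the 5 somatostatin (Sst) cells had Npy2r, where 2.2 come from the product, and 2.96% of 641 genes of the same breadth likewise shared none. Cells 1 and 31 had both Sst and Mc3r. Glp1r was detected in 5 Pomc cells, 5 Cartpt cells and 5 Agrp cells, against 4, 4 and 3.6. Only some pairs of these markers with the 10 genes are given, and they were chosen with their values known. Among the pairs left out, Lhx1 and Pomc shared 3 cells against 2.8, and Th and Cartpt shared 2 against 3.2.

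The genes most like a precursor over the 25 cells were sought among 9783 genes detected in at least 3 cells. For Pomc they were Exoc7 (rho = 0.67), Man2c1 (0.67), 9930104L06Rik (0.65), Prss36 (0.63) and Cartpt (0.63). For Cartpt they were Adcy5 (0.65), Pomc (0.63), Sfi1 (0.61), Nup54 (0.61) and Wdr11 (0.61). For Agrp they were Slc30a6 (0.77), Hba-a2 (0.62), 1110065P20Rik (0.61), Cpsf2 (0.59) and Tbc1d14 (0.59). A rho above 0.5 was reached by 57 genes for Pomc, 51 for Cartpt and 56 for Agrp. By Pearson's r only 2 of the 5 genes stayed among the first 5 for Pomc and for Cartpt, and without the cells of low Malat1 none did.

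**Figure D4:**
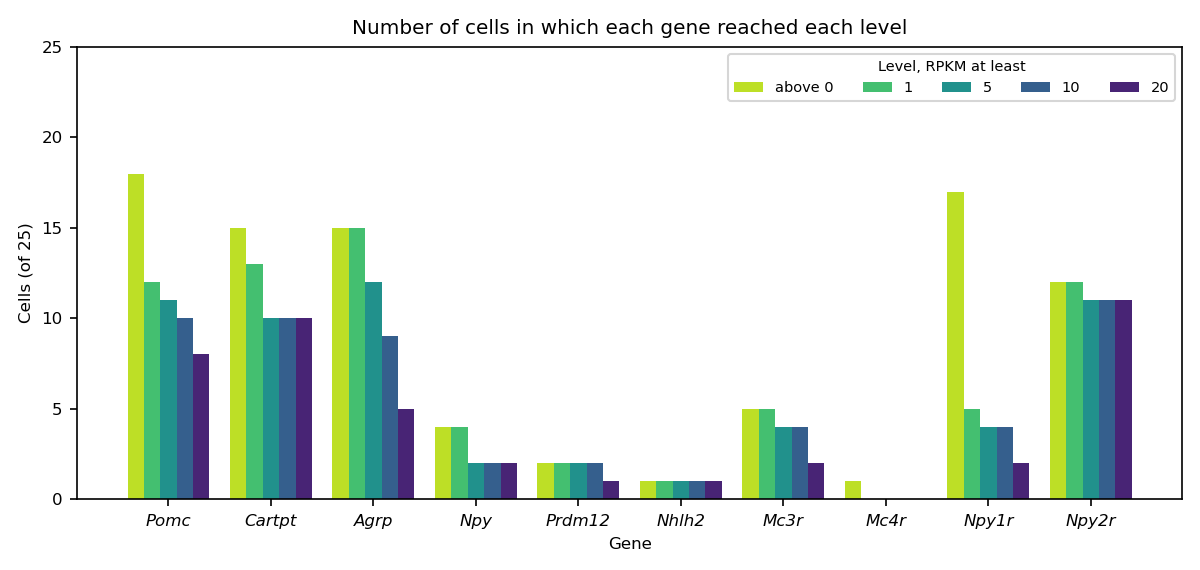
Number of the 25 cells (vertical axis) in which each gene was listed above 0 or reached 1, 5, 10 or 20 RPKM (bars from light to dark). Cartpt and Npy2r keep 10 and 11 cells from 5 to 20 RPKM, whereas Agrp goes to 15 cells above 0 and 5 cells at 20 RPKM, and Npy1r to 17 cells above 0 and 2 at 20 RPKM.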

How the data were processed

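Each hand-picked GFP+ cell gave a Smart-Seq2 library finished with Nextera XT, per the labels' protocols. Strand is not marked and there are no molecular identifiers, so several reads can stem from 1 molecule. Builds mm10 and GRCm38 and the tools featureCounts 1.4.6, TopHat2 2.0.14, SAMtools 0.1.19, bcl2fastq and Picard 2.5.0 are named, with no roles, per the submitters' processing notes. The authors deposited 1 table whose values are RPKM by their form (decimals, on steps set by gene length), while its name speaks of counts. How RPKM was computed, and from which annotation, is not given in the sources used here.

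Of 33082 rows, 26 with names turned into date numbers were left out, and for 755 repeated symbols only the row of greatest total entered. GENCODE M21 supplied positions and exon lengths, with a length for 73.6% of symbols carrying 95.3% of RPKM. RPKM times length summed to 1.38 to 1.47 times the value expected from matching lengths, so read numbers are estimates. Depth was taken from the steps of 1, 2 and 3 reads among low values, a method tested on simulated data. The simulation used the same lengths as the estimate, so it could not show the error from lengths that differ. Intervals are exact Clopper-Pearson at 95%. Joint detection was set beside the product of shares and beside all other genes of like breadth, as descriptions. Likeness is Spearman's rho over the cells. Analyses used Python 3.11.15, numpy 2.4.6, pandas 2.3.3 and scipy 1.17.1. Alternatives were levels above 0 and of 1, 5 and 20 RPKM, rescaling to equal sums, summing repeated rows and leaving out cells.

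The 10 genes, the lists and the rule for named genes (up to 6 of each list detected in most cells and up to 4 in none, the 5 genes most like Pomc, Cartpt and Agrp, genes that overlap a member and genes that mark other cells of the series) were chosen with earlier results of these data known. Pcsk1, Pcsk2, Otp, Bsx, Corin, Ghsr, Npy5r, Mc1r, Crhr1, Gh, Malat1, Vim, neighbouring genes and the red blood cell genes were added after their values were seen. Some items are not reported here.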

Additional observations from a re-analysis of the deposited data

How the results depend on the processing

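No paired analysis was possible because there is 1 group of cells from 1 pool. Of 156 alternative values, 134 stayed within the interval or the range set for the main value. This count does not measure robustness, because many of the values could hardly fall outside. The intervals of the shares are wide, for Pomc 21.1 to 61.3%, and leaving out 1 cell could move most shares only slightly. Summing repeated rows could not change the share of any of the genes, since each was on 1 row. Counting any value above 0 moved Pomc to 72% of cells, Agrp to 60%, Npy1r to 68%, Pomc with Cartpt to 52% and Pomc with Agrp to 48%. A level of 1 RPKM also put Agrp at 60%. Without the 6 cells with Malat1 under 20 RPKM, Nhlh2, Pomc with Prdm12 and Pomc with Nhlh2 came to 0%, and leaving out cell 29 or cell 43, alternatives chosen after the data were seen, gave each of the 3 a range of 0 to 4.17%, with 0% without cell 29. Cell 29 thus decides every statement on Nhlh2 and on Prdm12 beside Pomc. Spearman's rho of Pomc and Cartpt was 0.46 without the low Malat1 cells, that of Pomc and Agrp 0.078, and that of Agrp and Npy2r 0.28. Leaving out cell 29 or cell 43 gave 0.14 or 0.14 for Pomc and Agrp. Without the same cells, none of the 5 genes most like Pomc or Cartpt stayed among the first 5, and 3 did for Agrp. Depth limits Npy most, since it is short.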
